A study of Mus musculus with 4 samples.

Results

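The cells that the authors' deposited annotation names Microglia were 182 of 12648 non-malignant cells, and of 31611 cells in all, in mouse sarcomas profiled by single-cell RNA sequencing. They were chosen by that annotation alone and numbered 55 and 38 with vehicle and 58 and 31 with digoxin. The tumors were sarcomas of the hind limb in mice of the 129/SvJae background that carried conditional Trp53 alleles (flox/flox), so every group shared this genotype. Vehicle mice received PBS and digoxin mice received digoxin, a cardiac glycoside that inhibits the sodium pump, at 2 mg/kg into the peritoneum every 24 h, and tumors were taken after dose 4. Each group held 2 mice, and the labels give no age for them. Tumors were dissociated with collagenase, dispase and trypsin, and one droplet library was made per mouse. The labels name no brain tissue and no sort for a cell type.

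Plasmacytoid dendritic cells are rare immune cells that sense nucleic acids in endosomes through Toll-like receptors and can release large amounts of type I interferon. Their identity depends on the E protein Tcf4, together with Irf8, Spib, Runx2 and Bcl11a, and mouse plasmacytoid cells carry the lectin Siglech, Bst2 and the growth factor receptor Flt3 at the surface. Microglia are the resident macrophages of the brain, known by Tmem119, P2ry12, Sall1 and Csf1r. Siglech is used as a marker of both cell types, so the gene by itself does not separate them.

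The promoters of 3 genes that led the list of genes highest in these cells are shown because Tcf4 binds E-boxes and Spib binds sites with a purine-rich core. They are the first 3 leading genes of the plasmacytoid list with a promoter in the RefSeq table (build GRCm38.p6), each with 250 bases before and 50 bases after the start, on the plus strand, at chr7:55767934-55768233 for Siglech, chr9:123766961-123767260 for Ccr9 and chr10:75406661-75406960 for Upb1. Capitals mark matches on either strand to the E-box CACCTG, whose other strand reads CAGGTG, to the palindromic E-box CAGCTG and to the Spib core GAGGAA, whose other strand reads TTCCTC, and no matches overlapped in the printed windows.
Siglech: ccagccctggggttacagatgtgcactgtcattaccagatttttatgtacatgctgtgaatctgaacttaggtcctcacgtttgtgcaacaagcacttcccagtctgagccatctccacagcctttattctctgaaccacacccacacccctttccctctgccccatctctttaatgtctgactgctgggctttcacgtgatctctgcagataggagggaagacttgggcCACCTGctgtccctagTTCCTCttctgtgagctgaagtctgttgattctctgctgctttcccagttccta
Ccr9: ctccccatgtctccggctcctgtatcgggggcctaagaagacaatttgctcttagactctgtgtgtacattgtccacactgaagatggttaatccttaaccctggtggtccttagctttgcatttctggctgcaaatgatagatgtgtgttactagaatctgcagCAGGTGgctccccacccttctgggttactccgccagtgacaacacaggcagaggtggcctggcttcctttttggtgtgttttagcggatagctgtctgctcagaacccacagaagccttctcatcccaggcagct
Upb1: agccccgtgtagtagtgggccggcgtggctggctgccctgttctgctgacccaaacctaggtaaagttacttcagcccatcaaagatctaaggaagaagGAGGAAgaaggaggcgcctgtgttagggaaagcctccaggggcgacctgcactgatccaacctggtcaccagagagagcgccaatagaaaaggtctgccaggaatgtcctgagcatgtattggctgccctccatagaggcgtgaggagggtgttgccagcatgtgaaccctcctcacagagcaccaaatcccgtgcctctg
The window of Siglech held 1 match to the E-box that is no palindrome and 1 to the Spib core, that of Ccr9 held 1 match to the same E-box, and that of Upb1 held 1 to the Spib core. That E-box was found in 20.2% of all 32851 promoters in the table, and in 8 of the 19 promoters of the 14 of 20 leading genes with an entry. The palindromic E-box was found in 16.3% of all promoters and 2 of the 19, and the Spib core in 28.3% and 5 of the 19. These matches are letters in a window and were not tested for binding.

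The median number of unique molecular identifiers (UMIs, each a counted RNA molecule) per cell lay between 9197 and 10460.5 over the 4 mice, and the summed UMIs between 312070 and 684897. Macrophages, the largest host population with 10363 cells, had a median of 16412 UMIs. Of 12633 non-malignant barcodes 15 occurred in more than 1 library. With tumor cells included, 113 of 31498 barcodes did, among them 1 of the 182 of the Microglia-named cells. Levels below are counts per 1000000 UMIs (CPM), averaged over the cells of a mouse. In these cells Xist, the RNA of the inactive X chromosome, was at 1953 and 1894 CPM with digoxin, at 1789 CPM in vehicle replicate 1 and at 0 in vehicle replicate 2, where the Y-linked gene Ddx3y was at 154 CPM. Vehicle replicate 2 therefore stood apart by sex chromosome genes.

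The label was checked against marker genes first, and the data went against it. All 182 cells carried 3 or more of Siglech, Bst2, Tcf4 and Flt3, and 138 carried all 4. Among macrophages 135 of 10363 cells (1.30%) carried 3 or more, among T cells 29 of 579, and among cells named Dendritic 23 of 63, while 0 of those 63 carried Siglech. How the names were given is not stated in the sources used here, and they may rest on these genes, so the counts are a description with no test.

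Siglech, a sialic acid-binding lectin that signals through an adaptor, was at 2178 and 2592 CPM with vehicle and 2487 and 2537 CPM with digoxin. In macrophages of the same mice it was at 0.986, 0.363, 0.401 and 1.58 CPM, and it was at 0 in all cells named Dendritic. Every one of the 182 cells held at least 4 UMIs of Siglech, with a median of 24 and a maximum of 45. Bst2, a surface protein that tethers enveloped viruses, was at 3011 ± 189 CPM (SD, n = 4 mice) against 216 in macrophages. Tcf4, the transcription factor that sets plasmacytoid identity, was at 1900 ± 133 CPM against 192 in macrophages, and its highest level in another type was 1040 CPM in cells named Epithelial. Bst2 and Tcf4 were found in every cell. Flt3, the receptor for the growth factor that drives dendritic cell development, was at 166 ± 34.9 CPM in 75.8% of the cells, and at 205 CPM in cells named Dendritic. Relative to their means, Siglech, Bst2 and Tcf4 varied less over the 4 mice than Flt3.

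Because shares of cells with a UMI rise with depth, cells were also thinned to 5000 UMIs each. Siglech, Bst2 and Tcf4 remained detected in 100% of the 181 Microglia-named cells deep enough, and Flt3 was detected in 55.2%. In 1000 macrophages thinned alike the shares were 0.20% for Siglech, 47.8% for Bst2, 55.6% for Tcf4 and 1.00% for Flt3. Only 1 Microglia-named cell and 68 macrophages were too shallow to be thinned.

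The other plasmacytoid markers were also found in most of these cells, across their roles. Their list was chosen with earlier results of these data known, so the values describe the cells and are no independent check. Of the 18 genes on the list, 12 had a UMI in over 90% of the cells and 18 in at least 60%. Among the regulators, Irf8 was at 2734 ± 282 CPM (SD, n = 4 mice) and in 100% of cells, Spib at 409 ± 62.3, Runx2, which acts in the exit of plasmacytoid cells from marrow, at 510 ± 91.7, and Bcl11a at 486 ± 120. In macrophages these were at 147, 0.367, 7.02 and 3.56 CPM. Irf8 was also high in cells named Dendritic and NK, at 1153 and 1333 CPM. Ly6d was in 64.3% of the cells and in 75.6% of B cells, where it was at 579 CPM. Among surface genes, the homing receptor Ccr9 was at 591 ± 110 CPM and in 96.2% of cells, and the inhibitory collagen receptor Lair1 at 603 ± 69.0. The endocytic adaptor Pacsin1 was at 331 ± 74.7 CPM, and Upb1, an enzyme of pyrimidine breakdown, at 339 ± 77.3 CPM. Cox6a2, a subunit of the respiratory chain otherwise known from muscle, was at 846 ± 39.1 CPM against 7.89 in macrophages.

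**Figure D1:**
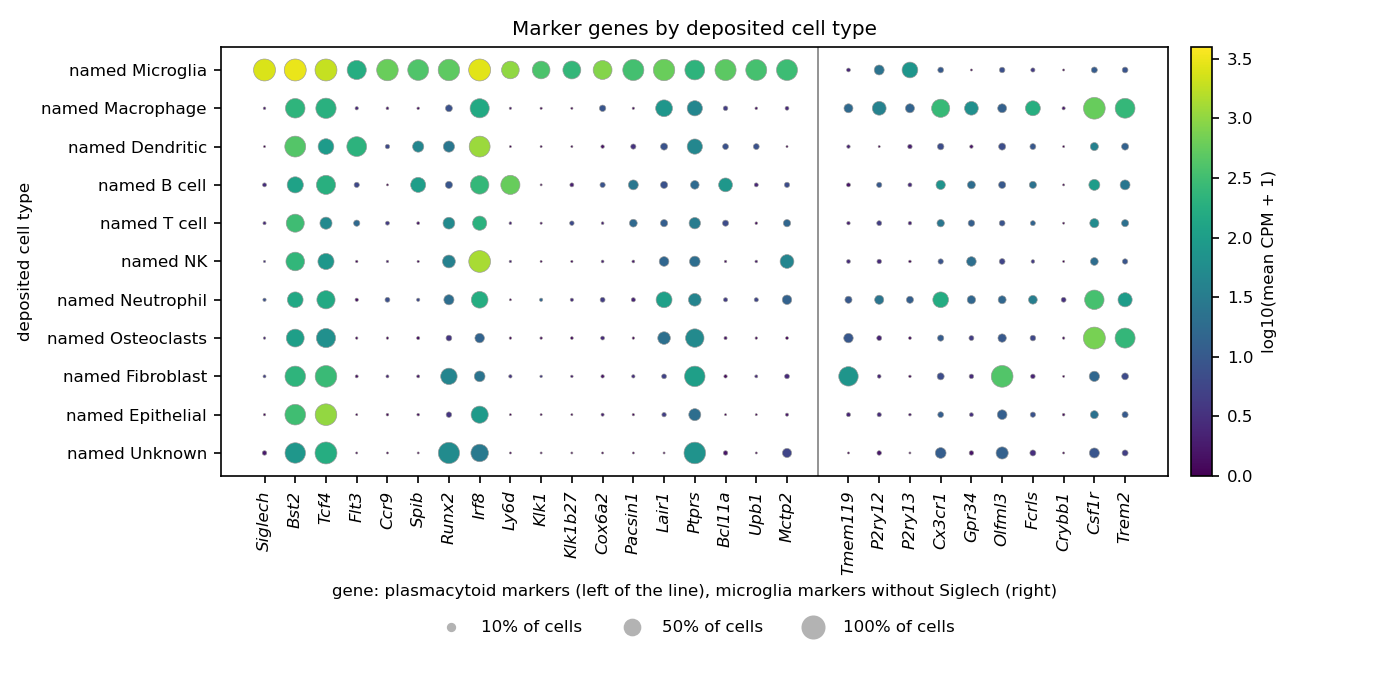
Mean level (colour, log10 of mean CPM + 1) and share of cells with a UMI (dot area) of 18 plasmacytoid markers and 10 microglia markers in each deposited cell type. Levels are means over mice weighted equally, and shares are over all cells of a type, with mice pooled. The row of cells named Microglia has large dots for all 18 plasmacytoid markers, from 64.3% of cells for Ly6d to 100%, and small dots for most microglia markers, with Gpr34 and Crybb1 at 0.

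Microglia markers were low or absent. Of the 13 such genes other than Siglech, Sall1 and Slc2a5 were not analysed here. Tmem119, which marks microglia among macrophages, was at 0.655 and 2.75 CPM with vehicle and 2.34 and 0 CPM with digoxin, in 2.20% of cells, while 15.9% of macrophages held a UMI of it. Gpr34, a lysophospholipid receptor, and Crybb1 were found in 0 of 182 cells, which allows a share of cells with a UMI of up to 1.65% and sets no limit on cells that express them below detection. Csf1r, the receptor on which microglia depend for survival, was found in 6.59% of cells against 97.8% of macrophages, Cx3cr1 in 6.04% against 68.1%, and Trem2 in 6.04% against 81.3%. These shares in macrophages came with a higher depth, as given above.

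Purinergic receptors were found in more cells than those genes. P2ry12 was found in 19.8% of cells and in 39.1% of macrophages. P2ry13 was found in 51.1% of cells, at 70.8, 92.0, 79.1 and 56.4 CPM in the 4 mice, and in 16.2% of macrophages, at 12.995 CPM. The summed level of the 11 genes was 162 to 226 CPM per mouse, against 1652 CPM in macrophages.

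The plasmacytoid and microglia lists, which differ in length, were also counted cell by cell. As both were chosen with earlier results of these data known, the counts are a description. A Microglia-named cell held a median of 16 of the 18 plasmacytoid markers, with a range of 9 to 18, and a median of 1 of the 11 microglia markers, with at most 7. The median cell named Macrophage held 4 plasmacytoid and 5 microglia markers, the median cell named Dendritic or B cell 4 plasmacytoid and 0 microglia markers, the median NK cell 3 and 0, and the median T cell 2 and 0. A low count of microglia markers was thus shared by those lymphoid and dendritic cells.

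**Figure D2:**
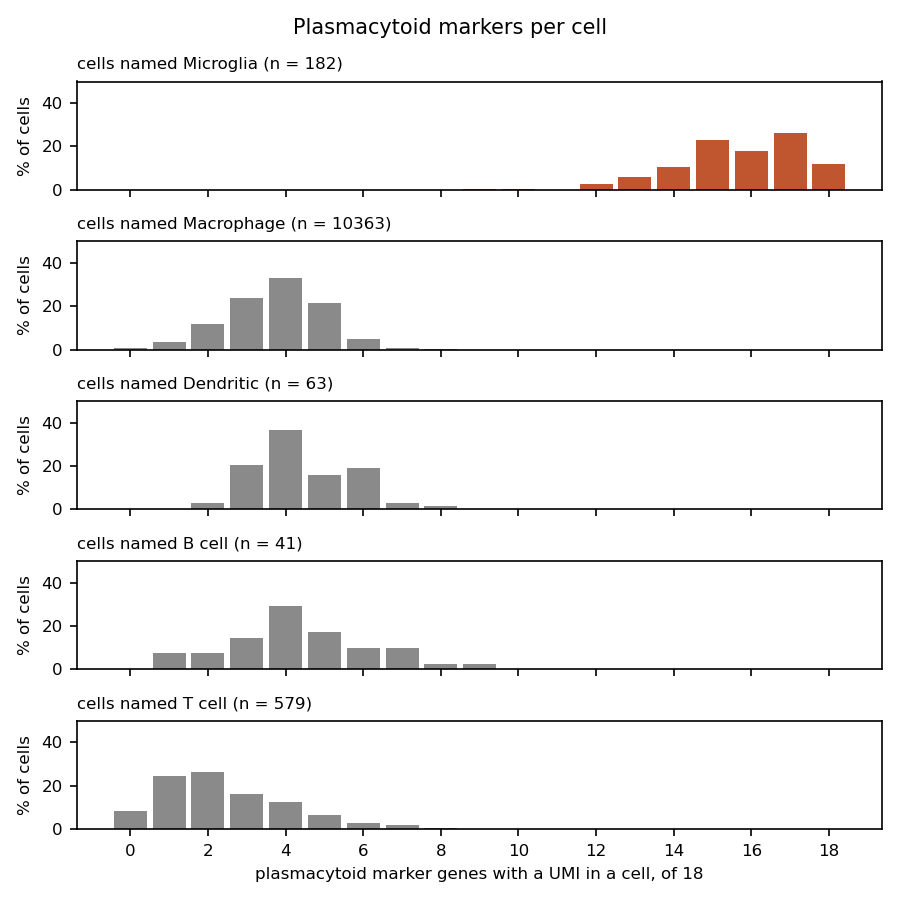
Number of plasmacytoid marker genes with a UMI in a cell (x axis, of 18) against the percent of cells (y axis) in 5 deposited types. Cells named Microglia lie at 9 to 18 markers around a median of 16, and the 4 other types have medians of 2 to 4. Of B cells 2.44% lie at 9 markers, while macrophages and T cells at 9 or more are too few to show as bars.

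Outside the name, 18 other non-malignant cells held 9 or more plasmacytoid markers, 16 of them with Siglech. They were named Macrophage in 10 cases, Fibroblast in 2, T cell in 2, and B cell, NK, Neutrophil or Osteoclasts in 1 each. Their median was 28062.5 UMIs, and 2 were marked as doublets by Scrublet, a program that scores a cell's likeness to simulated pairs of cells.

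Which genes were highest in these cells relative to the other non-malignant types was asked without the marker lists. Genes with a mean of at least 50 CPM in these cells were ranked by the ratio of their mean CPM, with 10 CPM added, to the highest mean in any of the 10 other deposited non-malignant types. Among the 3105 such genes Siglech ranked 1st with a ratio of 147, followed by Cd209d, a lectin of the DC-SIGN family (64.8), Cox6a2 (47.9), Ccr9 (36.3), the membrane progestin receptor gene Paqr5 (20.9), Upb1 (20.5) and Rnase6, an antimicrobial ribonuclease (20.2). Of the 20 leading genes 7 were on the plasmacytoid list and 13 were not, while the 3105 ranked genes held all 18 of that list. The list was chosen with earlier results of these data known, so this overlap is a description and no independent check. Among the 13, Dntt, which encodes the template-free DNA polymerase of lymphoid progenitors, had a UMI in 61.5% of cells at 187 ± 74.7 CPM, and its next highest type was at 1.35 CPM. Il12a, a subunit of interleukin-12, had a UMI in 51.1% of cells at 121 ± 31.8 CPM. Lefty1, an antagonist of the TGF-beta family, was at 253 ± 65.3 CPM, and Lrp8, a lipoprotein receptor, at 294 ± 40.7 CPM.

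Markers of conventional dendritic cells were mixed. Id2, an inhibitor of E proteins that conventional dendritic cells use, was at 32.7, 22.0, 68.6 and 38.2 CPM in the 4 mice and at 1762 CPM in cells named Dendritic. Batf3 and Zbtb46, factors of conventional dendritic cells, were found in 2.20% and 0.549% of cells and were at 219 and 76.7 CPM in cells named Dendritic. Those cells carried genes of mature dendritic cells, with the lymph node homing receptor Ccr7 at 3021 CPM, against 5.07 ± 6.31 CPM here. The sum of the 7 markers of type 2 conventional dendritic cells went the other way, although Zbtb46 is one of them. It was 467 to 641 CPM per mouse here against 248 in cells named Dendritic and 812 in macrophages. Among them the lectin Clec10a was found in 85.7% of cells at 322 ± 69.3 CPM, a large part of that sum. The 7 markers of type 1 cells summed to 117 to 148 CPM per mouse, against 282 in cells named Dendritic, and among these Clec9a, a receptor for dead cells, was found in 33.5% of cells.

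Genes of nucleic acid sensing were present unevenly. Tlr7, the receptor for single-stranded RNA, was at 110 and 146 CPM with vehicle and 115 and 118 CPM with digoxin, in 59.9% of cells. Tlr9, the receptor for unmethylated DNA, was found in 7 of 182 cells, at 1.99 to 6.11 CPM. Of the helper proteins of these receptors, Unc93b1 was at 700 ± 30.6 CPM and the endosomal nuclease Pld4 at 920 ± 18.8 CPM. Irf7, the factor that switches on interferon genes, was at 494 ± 72.2 CPM, against 216 in macrophages. Ifna1, Ifna2, Ifna4 and Ifnb1 were not analysed here.

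Surface and homing genes included several that are better known from lymphocytes. Il7r, the interleukin-7 receptor, was in 98.9% of cells at 780 ± 94.5 CPM, against 361 in cells named Dendritic, of which 79.4% held a UMI, and 277 in T cells. The inhibitory receptor Lag3 was in 80.8% of cells, and the chemokine receptors Ccr2 and Cxcr3 in 89.6% and 56.0%. Ly6c2 was at 2142 ± 349 CPM. The 8 markers of T and NK cells, Il7r included, summed to 775 to 1026 CPM per mouse, against 4702 in T cells and 24.9 in macrophages, and the T cell receptor gene Cd3e had a UMI in 5.49% of cells. The 7 B cell markers summed to 30.9 to 83.8 CPM, against 3329 in B cells, with Ms4a1 at 0 and Cd79b in 23.6% of cells. Igkc, an immunoglobulin light chain, had a UMI in 38.5% of cells. Mzb1, a secretory chaperone of plasma cells and plasmacytoid cells, was in 69.2% of cells at 232 ± 45.5 CPM, while it was at 0.101 CPM in macrophages and 1020 in B cells. Atp1b1, a beta subunit of the sodium pump that digoxin inhibits, was at 534, 664, 645 and 481 CPM in the 4 mice and in 97.3% of cells, against 0.722 CPM in macrophages and 23.3 in T cells, and at 103 CPM in NK cells, of which 64.7% held a UMI.

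The cells differed among themselves in MHC class II, in chemokines and in interferon-stimulated genes. The summed CPM of H2-Aa, H2-Ab1, H2-Eb1 and Cd74, which build the antigen-presenting class II complex, ran from 110 to 34032 per cell, with a 10th percentile of 1201, a median of 9050 and a 90th percentile of 17977. The 3 H2 genes were all undetected in 7 cells. Over the 182 cells, with each mouse centred, log levels of H2-Ab1 and H2-Eb1 had a Pearson correlation of 0.91, and H2-Aa and H2-Ab1 one of 0.89. These points share library, depth and scaling, and the values are a description. The costimulatory genes Cd80 and Cd40 were found in 6.04% and 2.75% of cells.

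Ccl4, a chemokine that attracts T cells and monocytes, was at 2366 and 1504 CPM with vehicle and 2110 and 1786 CPM with digoxin. It was absent from 22.5% of cells and reached 23905 CPM in one. Ccl3, its neighbour in function, was found in 25.5% of the 141 cells with Ccl4 and in 1 of the 41 cells without it.

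Interferon-stimulated genes varied together over cells. Among 8 such genes in at least 20% of cells the median pairwise correlation was 0.38, and Isg15 with Ifi44 reached 0.75. At least 5 of 17 such genes were found in 38.2% and 23.7% of cells in the vehicle mice and in 24.1% and 45.2% in the digoxin mice, so the groups overlapped.

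Several plasmacytoid markers were themselves uneven. Ly6d, a surface protein of lymphoid-primed progenitors, had no UMI in 35.7% of cells yet reached 10048 CPM in another, and its 90th percentile was 3084 CPM. Klk1 and Klk1b27, kallikreins of one multigene family, were correlated over cells at 0.64, and reads of such close relatives may be split between them by the counting. This was the highest of 153 pairs of plasmacytoid markers, whose median was 0.09. Genes of cell division were rare, and 0 of 182 cells held 3 or more of Mki67, Top2a, Cdk1, Ccnb1 and Ccna2.

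A small number of Microglia-named cells carried macrophage genes as well, and later results turn on them. In 14 cells 3 or more of C1qa, C1qb, C1qc, Adgre1, Ms4a7, Mrc1 and Fcgr1 had a UMI, 4 and 2 cells with vehicle and 5 and 3 with digoxin. Their median of 22243 UMIs was above the 9513.5 of the other 168 cells, and they held 14.3% of all UMIs of the Microglia-named cells. Scrublet marked 6 of the 14 as doublets, and 9 of the 182 in all. Their median of 16.5 plasmacytoid markers was close to the 16 of the others. Over all 12 macrophage markers the summed level was 1698 and 571 CPM with vehicle and 1451 and 1920 CPM with digoxin, and without the 14 cells it was 765, 561, 737 and 821 CPM. Adgre1, Ms4a7 and Csf1r were at 0 in vehicle replicate 2, and no marker was at 0 in the other 3 mice. In all, 11 of the 182 cells carried 3 or more of the T cell genes Cd3e, Cd3d, Cd3g and Trbc2.

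Whether digoxin changed the number of these cells was asked first. They made up 1.81% (95% Wilson interval 1.40 to 2.35) and 1.26% (0.920 to 1.73) of non-malignant cells in the vehicle mice. In the digoxin mice the shares were 1.73% (1.34 to 2.24) and 0.952% (0.671 to 1.35), and the intervals cover counting error only. The groups overlapped, and the difference of -0.19 percentage points gave p = 0.667 in a two-sided exact permutation test, where 2 against 2 mice cannot go below 0.3333.

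Whether digoxin changed their expression was then tested with limma on log2(mean CPM + 1) per mouse, over 5818 genes kept by a filter on low counts. None passed a Benjamini-Hochberg adjusted p of 0.05 (0.0% called), while 278 genes, 4.78%, had an unadjusted p under 0.05. The smallest adjusted p was 0.100. edgeR on the recovered UMIs also called 0 genes, with 208 unadjusted, and DESeq2 called 1, Wfdc17. Leaving out one mouse gave 87 calls without vehicle replicate 1, 17 without vehicle replicate 2, 23 without digoxin replicate 1 and 13 without digoxin replicate 2. In those fits the group left with 1 mouse is assumed to vary like the other. Without vehicle replicate 1 the vehicle group was vehicle replicate 2 alone, which stood apart by sex chromosome genes. Digoxin and that difference cannot be told apart in that fit.

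The genes with the smallest p were read through the 14 cells with macrophage markers. Hmox1, heme oxygenase, was at 22.1 and 2.74 CPM with vehicle and 219 and 78.6 CPM with digoxin. Both digoxin mice were above both vehicle mice, as they were for 16.7% of all genes tested, and the log2 difference was 3.83 (adjusted p = 0.100 by limma, SE 0.68). In digoxin replicate 1, however, 326 of the UMIs lay in cells with macrophage markers and 9 in the other cells. In digoxin replicate 2 the numbers were 36 and 1. Without those cells Hmox1 was at 19.6 and 2.89 CPM with vehicle and 12.5 and 4.20 CPM with digoxin, the groups overlapped, and the gene no longer passed the filter.

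Apoe, the apolipoprotein of lipid-handling macrophages, was at 5.25 and 36.0 CPM with vehicle and 141 and 131 CPM with digoxin, a log2 difference of 3.17 (adjusted p = 0.100 by limma, SE 0.58). It was 1.89 without vehicle replicate 1 and 4.46 without vehicle replicate 2. The cells with macrophage markers held 208 of its UMIs in digoxin replicate 1 and 51 in digoxin replicate 2, against 11 and 17 in the other cells. Without them the log2 difference was 1.19 (adjusted p = 0.982) and the groups overlapped. Pf4, a chemokine of platelets and tissue macrophages, had 98.2% of its UMIs in the 14 cells and Wfdc17, a secreted protein of myeloid cells, 82.1%. The log2 difference of Pf4 was 3.56, and 2.25 without digoxin replicate 1.

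**Figure D3:**
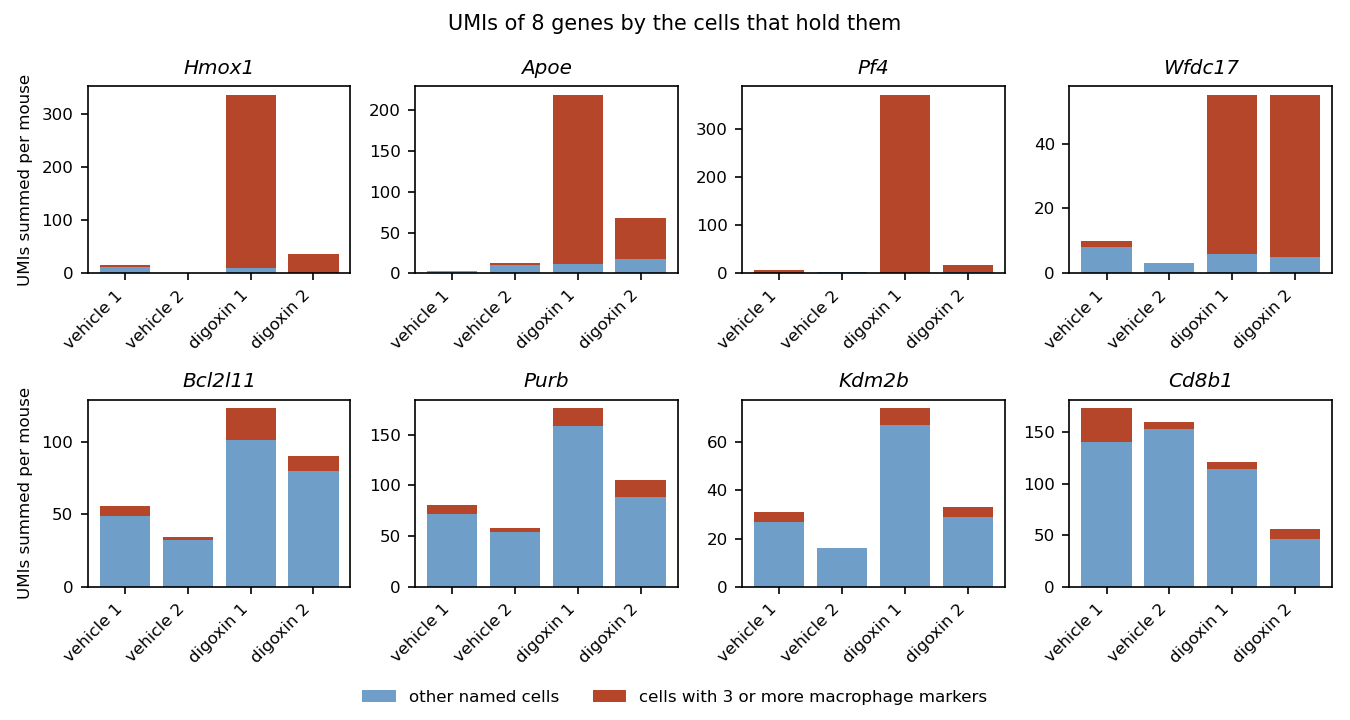
UMIs summed per mouse (y axis, a separate scale for each gene) of 8 genes, split into the 14 Microglia-named cells with 3 or more macrophage markers and the other 168. For Hmox1, Apoe, Pf4 and Wfdc17 the larger bars of the digoxin mice are made up mostly of the 14 cells, as with 326 of the Hmox1 UMIs of digoxin replicate 1, whereas Bcl2l11, Purb, Kdm2b and Cd8b1 have most UMIs in the other cells.

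Among the 12 genes with the largest higher values under digoxin, chosen at an unadjusted p under 0.05 with both digoxin mice above both vehicle mice, 8 had over 50% of their UMIs in the 14 cells, and the median share was 80.9%. The median over all genes tested was 13.2%. Without the 14 cells 6 of the 12 were still tested and 4 still had an unadjusted p under 0.05, as did 4.52% of all genes then tested (0.0% at the adjusted threshold). The 12 also included genes whose value rested on vehicle replicate 2. Without that mouse the log2 difference went from 5.51 to 0.10 for Xist, from 3.10 to 0.31 for the chemokine Ccl9, from 2.94 to 0.45 for the lectin Clec4e and from 2.27 to 0.74 for Socs1, an inhibitor of cytokine signalling. Vehicle replicate 2 was at 0 CPM for Xist, Ccl9 and Clec4e and at 2.32 CPM for Socs1. In the same fit Gm21188 went from 2.25 to 0.66, the coagulation factor gene F13a1 from 2.32 to 1.36, Ccl6 from 4.17 to 1.52 and Hmox1 from 3.83 to 2.52. Hspa1a, a heat shock protein, was at 0 and 8.90 CPM with vehicle and 28.5 and 207 CPM with digoxin, and 49 of its UMIs in other cells of digoxin replicate 2 lay in 4 cells. Its log2 difference was 4.64, and 2.98 without vehicle replicate 1. Without the cells that carried macrophage markers or T cell genes, a choice made after seeing the data, Hspa1a was at 0 and 10.6 CPM with vehicle and 5.09 and 28.5 CPM with digoxin, the groups overlapped and the gene no longer passed the filter. The 12 genes with the largest lower values had a median of 10.6% of their UMIs in the 14 cells. Without those cells 11 of them still had an unadjusted p under 0.05, beside 4.52% of all genes then tested. Both groups of 12 had been chosen at that level on data that hold the same remaining cells, so these counts are no test.

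The genes whose values did not rest on the 14 cells are given next, none of which passed the adjusted threshold. Bcl2l11, Purb, Kdm2b, Cd8b1 and Gm42418 were named for their small p after the values were seen. Bcl2l11 encodes Bim, which promotes cell death. It was at 92.2 and 91.6 CPM with vehicle and 175 and 305 CPM with digoxin, a log2 difference of 1.32 (adjusted p = 0.167 by limma, SE 0.26), and 1.33 without the 14 cells (adjusted p = 0.409). It passed the threshold when either vehicle mouse was left out (1.33 without replicate 1 and 1.32 without replicate 2) and without digoxin replicate 1 (1.72), and missed it without digoxin replicate 2 (0.92). Purb, a nucleic acid-binding protein, was at 147 and 157 CPM against 269 and 340 CPM, a log2 difference of 0.99 (SE 0.20). Kdm2b, a histone demethylase, was at 53.5 and 42.8 CPM against 116 and 112 CPM, a difference of 1.24 (SE 0.27). In all 3 genes the digoxin mice lay above the vehicle mice with and without the 14 cells. Over all cells this held for 16.7% of all genes tested, and the share without the 14 cells was not counted. As the 3 were picked for small p in these data, their lack of overlap is no test.

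Lower values were found for Cd8b1, a chain of the CD8 coreceptor, at 282 and 428 CPM with vehicle and 172 and 169 CPM with digoxin, a log2 difference of -1.02 (adjusted p = 0.210 by limma, SE 0.22). The transcript AC140186.1 was at 182 and 275 CPM against 98.8 and 62.4 CPM, a log2 difference of -1.50 (SE 0.28, adjusted p = 0.100). Il3ra, a chain of the interleukin-3 receptor, was at 41.3 and 62.8 CPM against 22.9 and 17.7 CPM. Hsd11b1, which makes active glucocorticoid, was at 71.0 and 48.1 CPM against 26.5 and 18.1 CPM. For each of these genes the groups did not overlap, with digoxin lower, as for 16.2% of all genes tested. The 12 genes with the largest lower values also included Adam11 (log2 difference -3.33), Eif2b2 (-1.72), Fam46a (-1.71), Elavl4 (-1.62) and Lin37 (-1.54). The rest were Nup88 (-1.46), Gabarapl1 (-1.33), 2810004N23Rik (-1.33) and Fchsd2 (-1.33). None of these passed the adjusted threshold, and Adam11 was at 0 CPM in digoxin replicate 2. Gm42418, which overlaps a ribosomal RNA repeat and whose counts are therefore uncertain, was at 2756 and 2000 CPM against 3610 and 4706 CPM.

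**Figure D4:**
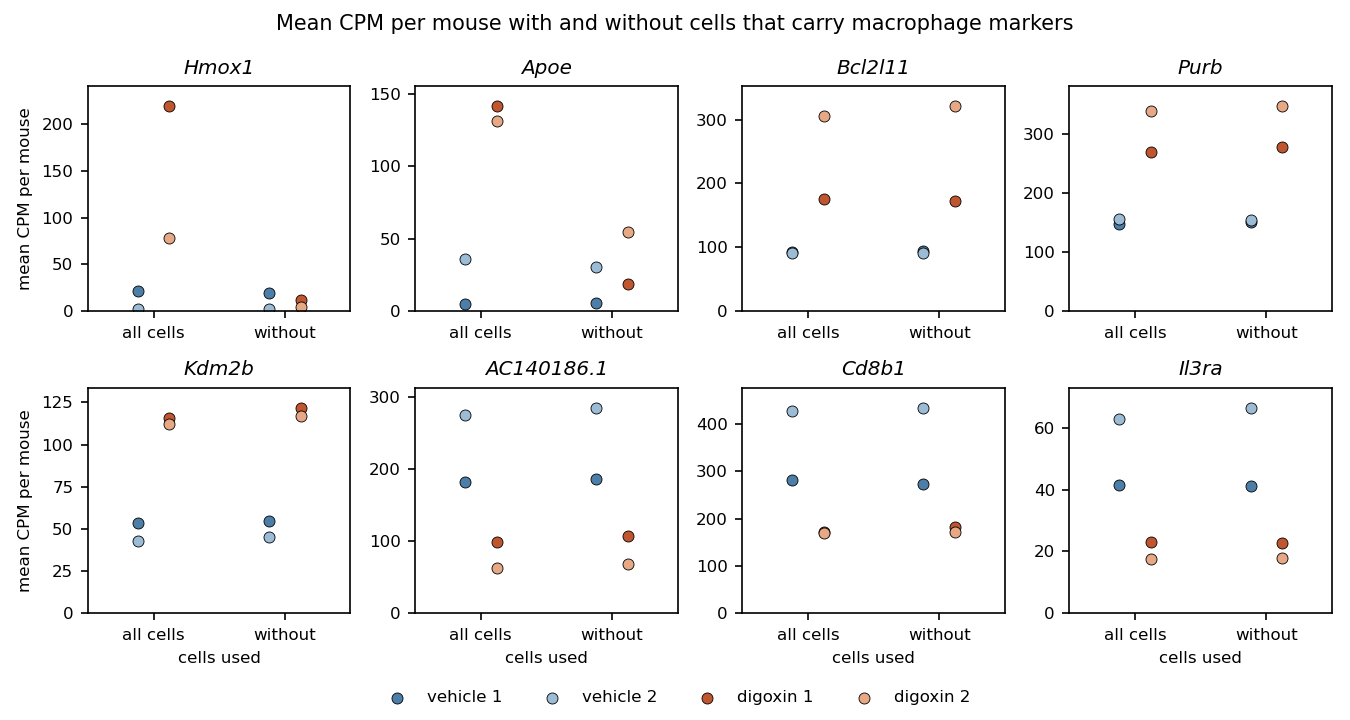
Mean CPM per mouse (y axis, a separate scale for each gene; one point per mouse) of 8 genes over all 182 Microglia-named cells (left) and without the 14 cells with macrophage markers (right). The digoxin points of Hmox1 drop from 219 and 78.6 to 12.5 and 4.20 CPM, and those of Bcl2l11, Purb, Kdm2b, AC140186.1, Cd8b1 and Il3ra stay apart from the vehicle points.

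By role, 0 members of any of the 26 gene lists passed the adjusted threshold. Of the 18 plasmacytoid markers, all tested, 0 had a higher and 3 a lower value at an unadjusted p under 0.05, against backgrounds of 2.9% and 1.87% of all genes. The median log2 difference of the list was -0.15, beside 0.01 over all genes. The 3 were Ccr9, Runx2 and Bcl11a. Ccr9 was at 639 and 723 CPM with vehicle and 500 and 501 CPM with digoxin. Runx2 was at 589 and 578 against 476 and 396 CPM, and Bcl11a at 546 and 589 against 492 and 316 CPM. Without the 14 cells Runx2 and Bcl11a still had an unadjusted p under 0.05 and Ccr9 did not (unadjusted p = 0.0738, limma across all genes).

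In the list of dendritic cell regulators 1 of 15 tested genes had a higher and 3 a lower value at that level, against the 2.9% and 1.87% of all genes. The higher one was Id2, an inhibitor of E proteins such as Tcf4, at 32.7 and 22.0 CPM with vehicle and 68.6 and 38.2 with digoxin. Its log2 difference was 0.91 over all cells, and 0.39 with an unadjusted limma p of 0.531 without the 14 cells. The lower ones were Zeb2, at 382 and 310 against 289 and 190 CPM, and Runx2 and Bcl11a, which are also on the plasmacytoid list. None of the 11 genes of nucleic acid sensing and none of the 16 interferon-stimulated genes did in either direction. In the class II list 1 of 8 did, Ciita, the master regulator of class II genes, at 40.9 and 35.8 against 12.6 and 18.6 CPM, whereas H2-Aa was at 1442 and 1656 against 1683 and 1803 CPM. In the list of chemokines, receptors and homing genes 3 of 10 tested were higher and 2 lower at that level. The median log2 difference of that list was 0.04. Itga4, an integrin chain for entry into tissue, was among the higher, at 147 and 127 against 263 and 211 CPM. Its log2 difference was 0.78 (adjusted p = 0.695 by limma, SE 0.22).

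Macrophage markers had 3 of 10 tested members higher and 0 lower at an unadjusted p under 0.05, with a median log2 difference of 1.14 over the 10. For this and the lists that follow, the share of all genes past that level was 2.9% higher and 1.87% lower. Without the 14 cells, which were picked by 7 of these markers, 4 members were still tested and their median was 0.31. The lipid-handling macrophage genes had 3 of 7 higher, with a median of 0.35, and of 0.19 without the 14 cells. Of the 11 tested genes known to respond to tissue dissociation 3 were higher, Fosb, Dusp1 and Hspa1a, and the part of dissociation in the other values was not tested. In the list of cell death and survival genes 2 of 8 tested were higher and 1 lower: Bcl2l11, Mcl1, whose groups overlapped at 403 and 228 against 379 and 499 CPM, and Pmaip1, which encodes the cell death protein Noxa, at 111 and 93.8 against 69.8 and 46.6 CPM. Of the 5 tested microglia markers, Siglech included, 0 differed at that level. Atp1b1 had a log2 difference of -0.10 with overlapping groups.

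The digoxin effect was last set against that in macrophages of the same mice, by the interaction of cell type and treatment in limma with the mouse as a block. It passed the adjusted threshold for 1 of 5818 genes (0.0172% called), and 209 genes, 3.59%, had an unadjusted p under 0.05. The 1 gene was Apoe, with a difference in log2 effect of 3.26 (SE 0.20, adjusted p = 0.000885). In macrophages Apoe was at 1400 and 6536 CPM with vehicle and 2637 and 3093 CPM with digoxin, with overlapping groups. Without the cells marked as doublets the difference was 1.88 (adjusted p = 1.00), and without the 14 cells with macrophage markers it was 1.27 (adjusted p = 0.999). The same 14 cells held 86.4% of the Apoe UMIs of the Microglia-named cells.

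Among the other genes of smallest p in that comparison were Hmox1, Wfdc17, Hspa1a and Plk2, none past the adjusted threshold. Hmox1 was at 506 and 267 CPM in macrophages of the vehicle mice and 781 and 572 CPM in those of the digoxin mice. Plk2, a stress-induced kinase, was at 8.57 and 5.61 CPM in the Microglia-named cells of the vehicle mice and 23.3 and 21.3 CPM in those of the digoxin mice.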

How the data were processed

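Single-cell RNA was measured in tumors of 4 mice, 2 vehicle and 2 digoxin. Per the submitters' processing notes, Cell Ranger 3.0.2, Seurat 3.0.2 and mm10 were used; the cell filter, the annotation and the rule for malignant cells are not given in the sources used here. The authors deposited natural log values, ln(1 + UMIs per 10000), for each cell, with UMI counts and cell type names in a deposited cell table. In that table the library with the number 3 in its cell names is vehicle replicate 2. All 48818208 values above 0 of the non-malignant cells turned back into whole UMIs (tolerance 0.01, 100.0%). A further allele in the labels and some members of the lists are not reported here.

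CPM per cell was averaged per mouse, and log2(mean CPM + 1) was tested with limma 3.58.1 (R 4.3.3), two-sided, over genes kept by edgeR 4.0.16 filterByExpr, with Benjamini-Hochberg adjustment over all genes. Cells are not replicates. The limma p-values rest on the spread between these 2 mice per group, with each gene's variance drawn toward a trend over all genes tested. They therefore do not measure the spread of a single gene alone. Main text thresholds were an adjusted p of 0.05 and, for description, an unadjusted p of 0.05. Doublets were scored with Scrublet in scanpy 1.11.5 (rate 0.06) and kept. DESeq2 1.42.0 and edgeR on recovered UMIs, other pseudocounts, filters, cell sets and mice were alternatives. On simulated data over 5487 genes, limma recovered 72.2% of genes changed by a log2 of 2 and 8.75% of those changed by 1. These counts were drawn per mouse from summed UMIs, with a dispersion set to 0.05 for every gene. Single cells, cells with macrophage markers and differences between mice in sex genes were not simulated. The rates are therefore not the power of the reported test.

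Genes named come from the members of the lists, the 20 leading genes by ratio and the 5 of smallest p against macrophages. Others are up to 12 in each direction with the largest log2 difference. These had an unadjusted p under 0.05, at least 20 CPM in a group and no overlap of groups. Bcl2l11, Purb, Kdm2b, Cd8b1 and Gm42418 were added for their small p after the values were seen. The members and lists were chosen with earlier results of these data known. Co-variation used log levels with 100 CPM added, for genes in at least 20% of cells. Same-numbered mice shared no more than a number.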

Additional observations from a re-analysis of the deposited data

Results flagged for a closer look

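The digoxin effect on Apoe differed between the Microglia-named cells and macrophages by 3.26 on the log2 scale (limma, adjusted p = 0.000885), and this difference between cell types under the same contrast is why it is listed. It was 1.88 without the cells marked as doublets and 1.27 without the 14 cells with macrophage markers, and neither value passed the adjusted threshold.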

How the results depend on the processing

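The count of genes changed by digoxin was 0 as reported, 1 by DESeq2, 2 with a pseudocount of 10, 13 to 87 with a mouse left out, and 1 to 37 with a mouse and the 14 cells left out (a choice made after seeing the data). With the replicate block it was 0 (204 unadjusted), and same-numbered mice deviated with a correlation of -0.15 over 5818 genes. A crossed replicate block, chosen after seeing the data, called 40 genes. The count that differed from macrophages was 1, and 0 without doublets, 0 without the 14 cells and 1 to 72 with a mouse left out, 72 being without vehicle replicate 1. The difference in share turned to 0.029 percentage points over all cells and ran from -0.59 to 0.20 with a mouse left out, above 0 without vehicle replicate 1 (0.082) or digoxin replicate 2 (0.20). Thinning to 5000 UMIs moved the mean markers per cell from 15.6 to 13.96 of 18 plasmacytoid and from 1.39 to 0.807 of 11 microglia markers. Ccl6 reversed to -0.52 by edgeR without the 14 cells and to -0.47 without them and vehicle replicate 2, against 4.17 as reported and 1.52 to 6.83 with one mouse left out. Of 667 alternatives for 34 named genes, 578 kept direction and side of the threshold and 85 passed it, 65 of these with a mouse left out. The cause of these changes was not tested. In fits without vehicle replicate 1 the vehicle group was vehicle replicate 2 alone. Digoxin cannot be told apart there from that mouse's difference in sex chromosome genes. With 2 mice per group and 31 to 58 cells per mouse, low genes rest on few UMIs.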
